A study of Mus musculus with 6 samples.

Results

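Fibroblasts on the way to pluripotency change the proteins they carry on their surface, and antibodies against those proteins are used to sort cells by stage. The 8 genes described here encode or make such markers: Thy1, Cd44, Icam1, Alpl, Fut4, Kit, Itgb3 and Cd24a. They were listed by name, with earlier results of these data known, and each was read by 1 probe set, so 8 of the 19938 genes named on the array are described. Expression was measured in total RNA of mouse embryonic fibroblasts, cultures grown from embryos, that received retroviruses carrying Klf4, Sox2 and Oct4 (the product of Pou5f1) on day 0 and were harvested on day 8. The groups were Foxd1+/+, Foxd1+/- and Foxd1-/- cells, which differ in the number of working copies of the forkhead transcription factor gene Foxd1, and every group carried the same 3 retroviruses. Each group had 2 arrays numbered as biological replicates 1 and 2, 6 arrays in all. The labels do not say whether a replicate is a separate embryo or culture. The spread behind the p-values is therefore the one among these arrays and may not be that among embryos. No uninfected fibroblasts and no pluripotent cells were among the arrays, so no level can be placed between a start and an end point.

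By background knowledge, Thy1 is a surface glycoprotein of fibroblasts that is lost early when reprogramming factors act. Alkaline phosphatase, the product of Alpl, and the carbohydrate SSEA-1, which fucosyltransferases such as Fut4 make, are gained at intermediate stages, and cells with both high Cd44 and low Icam1 have been used to mark an early state from which Cd44 is lost and Icam1 gained. Kit is the receptor of stem cell factor, Itgb3 is an integrin chain that has been used with Cd24a to sort partly reprogrammed cells, and Cd24a is a small glycosylated protein anchored in the membrane by lipid. An array reads messenger RNA, so protein on the cell surface was not measured.

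Alpl and Cd24a were lower in the replicate 2 array than in the replicate 1 array of every genotype, and both passed the test for that difference. No marker passed the test between any pair of genotypes, and the fibroblast markers Thy1 and Cd44 hardly varied across the 6 arrays. Kit and Icam1 stood highest on 1 array, replicate 2 of Foxd1-/-.

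Some facts of the whole series bear on these values. Intensity is the brightness of a probe set on a linear scale, and its median per array lay between 76.5 and 79.6. The Foxd1 probe set read 1907 and 1169 for Foxd1+/+, 1014 and 2074 for Foxd1+/- and 189 and 213 for Foxd1-/-. It was low in both libraries labelled Foxd1-/-, but in replicate 2 the heterozygous label goes with more Foxd1 than the wild-type label, against the order these labels imply. Genotype names in what follows are therefore names of labels. Fibroblast genes were well represented in all cultures, with 19 or 20 of 20 listed genes above the array median. The leukocyte list had 4 to 6 of 13 genes above the array median, led by the lysosomal gene Laptm5 at 582 to 1341, lysozyme (Lyz2) at 472 to 833, Cd68 at 148 to 198 and Fcer1g at 121 to 193, while the pan-leukocyte gene Ptprc lay between 41.0 and 49.1, below that median.

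**Figure D1:**
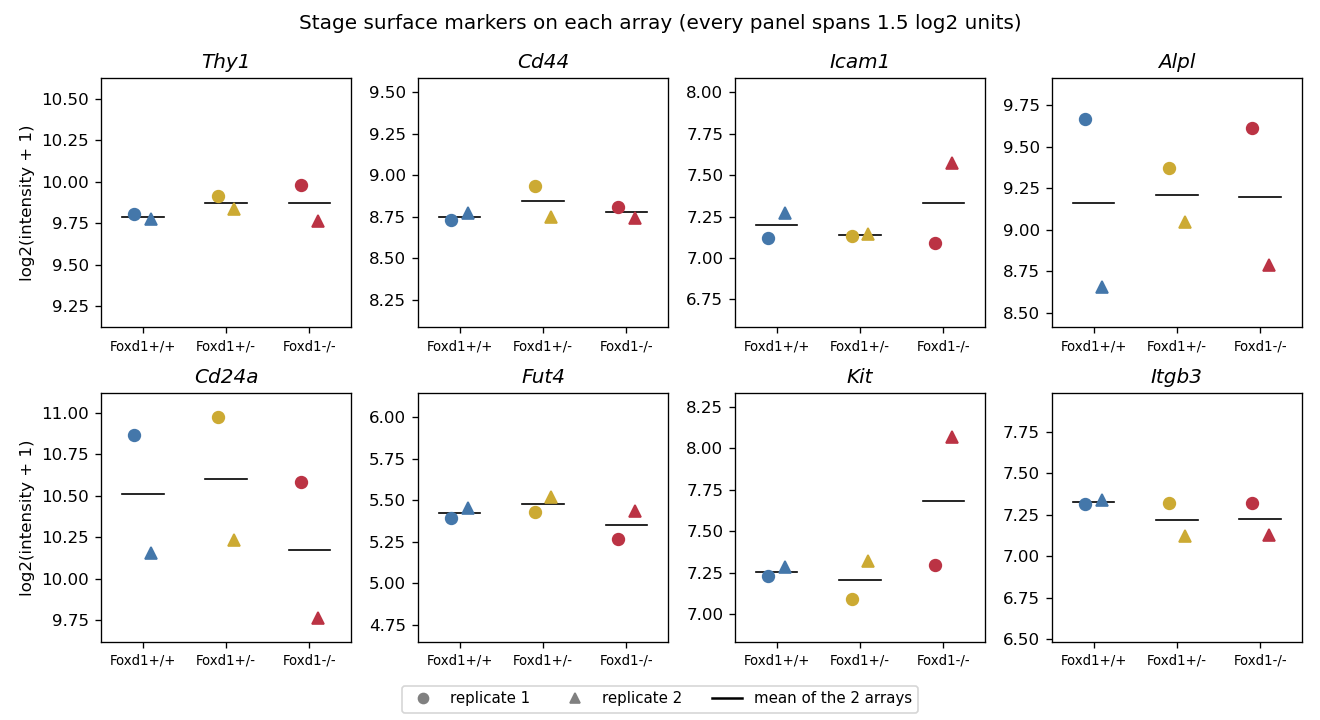
Level of each marker as log2(intensity + 1) on the 6 arrays, by genotype on the horizontal axis, with circles for replicate 1, triangles for replicate 2 and a line at the mean of both arrays. Each panel spans the same height, so that the flat Thy1 and Cd44 panels can be set beside the spread of Alpl and Cd24a and the single high Kit array at 267.

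Alpl and Icam1 are the markers for which upstream sequence is shown, because Alpl is 1 of the 2 markers that differed between replicate numbers and Icam1 was highest on the array with the highest summed interferon and NF-kB response. RefSeq windows (build GRCm38.p6) were found for 5 of the 8 genes, Cd44, Alpl, Kit, Fut4 and Icam1. Alpl has 2 such windows, whose start sites lie 29909 bases apart, and which of them the probe set reads was not analysed here. The 250 bases before each Alpl start are given with every CG in capitals, and those before Icam1 with matches to 2 searched motifs in capitals, all 5′ to 3′ on the strand of the gene.
Alpl, upstream start, chr4:137796385-137796634, minus strand: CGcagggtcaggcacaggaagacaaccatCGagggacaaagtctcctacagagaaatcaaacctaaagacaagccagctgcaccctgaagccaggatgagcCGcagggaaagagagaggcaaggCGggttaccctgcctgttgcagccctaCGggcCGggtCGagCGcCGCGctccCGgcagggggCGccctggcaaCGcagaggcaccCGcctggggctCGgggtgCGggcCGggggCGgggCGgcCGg
Alpl, downstream start, chr4:137766476-137766725, minus strand: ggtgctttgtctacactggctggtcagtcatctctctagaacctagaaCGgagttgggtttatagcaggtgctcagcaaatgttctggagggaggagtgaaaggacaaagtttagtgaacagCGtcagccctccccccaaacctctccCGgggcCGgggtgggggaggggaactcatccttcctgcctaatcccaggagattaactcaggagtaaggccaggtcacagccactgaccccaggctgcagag
Icam1, chr9:21015690-21015939, plus strand: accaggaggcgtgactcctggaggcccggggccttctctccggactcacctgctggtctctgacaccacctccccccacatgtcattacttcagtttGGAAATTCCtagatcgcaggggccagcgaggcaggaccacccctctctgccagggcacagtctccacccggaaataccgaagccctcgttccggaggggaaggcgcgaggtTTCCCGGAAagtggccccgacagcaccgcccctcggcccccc
The upstream Alpl window holds 20 CG pairs and the downstream one 4, where the median of all 32851 windows is 6. In Icam1 the first match is GGAAATTCC, a form bound by NF-kB, which begins 153 bases before the start, and the second is TTCCCGGAA, of the form TTCNNNGAA (GAS) bound by STAT factors, 42 bases before it. Each motif was searched on both strands of the whole 300-base windows, and the matches do not overlap. GAS occurs in 8.30% of all windows, GGAAATTCC or a longer kappaB form in 1.85%, the interferon-stimulated response element (ISRE) in 3.44% and the forkhead motif GTAAACA in 3.65%. Of the 7 windows of these markers, 2 held an NF-kB form (Icam1 and, as the longer form on the opposite strand, Fut4), 1 held GAS, and 0 held the ISRE or forkhead letters. A match describes letters only, and binding was not measured.

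Thy1, the fibroblast marker, read 893 and 876 for Foxd1+/+ (replicates 1 and 2), 963 and 914 for Foxd1+/-, and 1009 and 869.6 for Foxd1-/-. The highest array was 1.16 times the lowest. Both Foxd1+/- arrays lay above both Foxd1+/+ arrays, but the Foxd1-/- arrays held the highest and the lowest value of all, so they overlapped with both other groups. Foxd1-/- differed from Foxd1+/+ by 0.08 ± 0.09 on the log2 scale (SE, n = 2 arrays each), with a 95% interval from -0.15 to 0.31, and that between Foxd1+/- and Foxd1+/+ was also 0.08 ± 0.09. Neither passed the test, although the second was larger than the log2 difference between replicates within Foxd1+/+ (0.03) and within Foxd1+/- (0.08).

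Cd44, the hyaluronan receptor, read 424 and 435 for Foxd1+/+, 488 and 429.8 for Foxd1+/- and 448 and 427 for Foxd1-/-. The first Foxd1+/- array was the highest and the groups overlapped in every pair. The log2 difference of Foxd1-/- from Foxd1+/+ was 0.02 ± 0.08 (95% interval -0.18 to 0.23) and from Foxd1+/- it was -0.07 ± 0.08 (-0.28 to 0.14; SE, n = 2 each). Of the enzymes that make hyaluronan, Has2 read between 161 and 213, and the proteins that tie Cd44 to the cytoskeleton, ezrin (Ezr), moesin (Msn) and radixin (Rdx), had log2 differences between Foxd1-/- and Foxd1+/+ of -0.08 ± 0.19, 0.02 ± 0.14 and -0.004 ± 0.053 (SE).

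Icam1, an adhesion molecule that leukocytes bind and that inflammatory signals induce, read 138 and 153 for Foxd1+/+, 139.5 and 141 for Foxd1+/- and 135 and 189.7 for Foxd1-/-. Replicate 2 of Foxd1-/- was 1.40 times replicate 1, and the other 5 arrays lay between 135 and 153. The Foxd1-/- group therefore held both the lowest and the highest array. Its log2 difference from Foxd1+/+ was 0.14 ± 0.17 (95% interval -0.31 to 0.58) and from Foxd1+/- 0.19 ± 0.17 (-0.26 to 0.64; SE, n = 2 each), and neither passed. Replicate 2 was above replicate 1 in every genotype, by 0.15, 0.01 and 0.49 on the log2 scale for Foxd1+/+, Foxd1+/- and Foxd1-/-, and the mean of 0.22 ± 0.10 did not pass (limma adjusted p = 0.27). The summed intensity of 18 interferon and NF-kB response genes was also higher in replicate 2 of every genotype. It was 3168 and 4704 for Foxd1+/+, 2934 and 6194 for Foxd1+/- and 4128 and 9865 for Foxd1-/-. Within a replicate number the orders differed. In replicate 1 Foxd1-/- had the highest sum but the lowest Icam1. In replicate 2 Foxd1+/- had a higher sum than Foxd1+/+ but a lower Icam1. The part of that response in the Icam1 level was not tested. The leukocyte integrin chains that bind Icam1, Itgal and Itgb2, read 42.0 to 48.2 and 53.8 to 62.7.

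Alpl, which encodes tissue-nonspecific alkaline phosphatase, read 813 and 402 for Foxd1+/+, 662 and 528 for Foxd1+/- and 782 and 441 for Foxd1-/-. In each genotype the replicate 1 array was the higher, and the 3 replicate 1 arrays lay above the 3 replicate 2 arrays without overlap. The genotype means of 607 ± 290.4, 595 ± 94.3 and 611 ± 241 (SD, n = 2 each) were close together and each had a spread larger than any difference between them. The log2 difference of Foxd1-/- from Foxd1+/+ was 0.04 ± 0.44, with a 95% interval from -1.11 to 1.18, in the fit without the replicate number as a block.

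Cd24a, the gene of the heat-stable antigen, read 1863 and 1139.8 for Foxd1+/+, 2009 and 1203 for Foxd1+/- and 1533 and 867 for Foxd1-/-. Here too the replicate 1 arrays lay above the replicate 2 arrays without overlap. Within each replicate number the Foxd1-/- array was the lowest and the Foxd1+/- array the highest. The log2 difference of Foxd1-/- from Foxd1+/+ was -0.28 within replicate 1 and -0.39 within replicate 2, and from Foxd1+/- it was -0.39 and -0.47. Taken over both arrays of a group these came to -0.34 ± 0.43 (95% interval -1.45 to 0.78) and -0.43 ± 0.43 (-1.55 to 0.69; SE, n = 2 each), and neither passed the test. Mouse has processed copies of Cd24a elsewhere in the genome, and how far the probe set tells them apart was not analysed here, so its level is uncertain to that extent.

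Fut4, a fucosyltransferase, read between 37.6 and 44.9 on all 6 arrays, below the array median on each, and the signal over background of such a probe set is unknown. The Foxd1-/- arrays, at 37.6 and 42.3, were the lower within each replicate number, next to 41.0 and 42.9 for Foxd1+/+ and 42.2 and 44.9 for Foxd1+/-. The log2 differences of Foxd1-/- were -0.07 ± 0.08 from Foxd1+/+ and -0.12 ± 0.08 from Foxd1+/- (SE, n = 2 each). Fut9, another fucosyltransferase that can make the SSEA-1 epitope, read 24.5 to 26.9, and it was below the array median as well.

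Kit, the receptor tyrosine kinase for stem cell factor, read 149 and 155 for Foxd1+/+, 135 and 159 for Foxd1+/- and 156 and 267 for Foxd1-/-. Replicate 2 of Foxd1-/- was 1.72 times replicate 1 of the same genotype, and the other 5 arrays lay between 135 and 159. Both Foxd1-/- arrays were above both Foxd1+/+ arrays, by 0.07 on the log2 scale within replicate 1 and 0.78 within replicate 2. The log2 difference from Foxd1+/+ was 0.42 ± 0.27 (95% interval -0.27 to 1.12) and from Foxd1+/- 0.48 ± 0.27 (-0.22 to 1.17; SE, n = 2 each), and neither passed. Without replicate 2 of Foxd1-/- these differences were 0.04 and 0.09, so both rest on that array.

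The ligand of Kit, stem cell factor (Kitl), read 229 and 271 for Foxd1+/+, 212 and 281 for Foxd1+/- and 315 and 431 for Foxd1-/-. Both Foxd1-/- arrays lay above all 4 other arrays, with log2 differences of 0.57 ± 0.22 from Foxd1+/+ and 0.59 ± 0.22 from Foxd1+/- (SE, n = 2 each), which did not pass either. Over all genes, 13.6% had Foxd1-/- arrays above both Foxd1+/+ arrays, and 2388 of 19938 had them above both Foxd1+/- arrays. Other cell types that carry Kit were looked for by their markers. The mast cell and blood progenitor list had 1 of 8 genes above the array median on every array, the transcription factor Gata2 at 178 to 257, and its summed intensity ran from 434 to 533. The mast cell protease Cpa3 read 23.2 to 24.8, and the melanocyte regulator Mitf read 57.5 and 58.3 for Foxd1+/+, 56.4 and 54.2 for Foxd1+/- and 64.0 and 67.2 for Foxd1-/-. Mitf was thus below the array median on every array. The list of 8 neuron and melanocyte genes, Mitf included, was mixed in direction. Of these 8, 4 were higher and 4 lower in Foxd1-/- than in Foxd1+/+, and 2 were higher and 6 lower than in Foxd1+/-.

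Itgb3, the integrin beta chain that pairs with Itgav, read 158 and 161 for Foxd1+/+, 159 and 138 for Foxd1+/- and 158 and 139 for Foxd1-/-. The replicate 1 arrays were nearly equal, and in replicate 2 the Foxd1+/+ array was the high one. The log2 difference of Foxd1-/- was -0.10 ± 0.10 from Foxd1+/+ (95% interval -0.37 to 0.16) and 0.002 ± 0.101 from Foxd1+/- (SE, n = 2 each). Itgav lay between 1017 and 1193 with a difference of 0.05 ± 0.09 in the first comparison, and fibronectin (Fn1), a ligand of this integrin, between 3968 and 4955 with 0.003 ± 0.148. Megakaryocytes, which carry Itgb3 with Itga2b, were looked for by 4 measured genes, of which 0 were above the array median on any array.

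**Figure D2:**
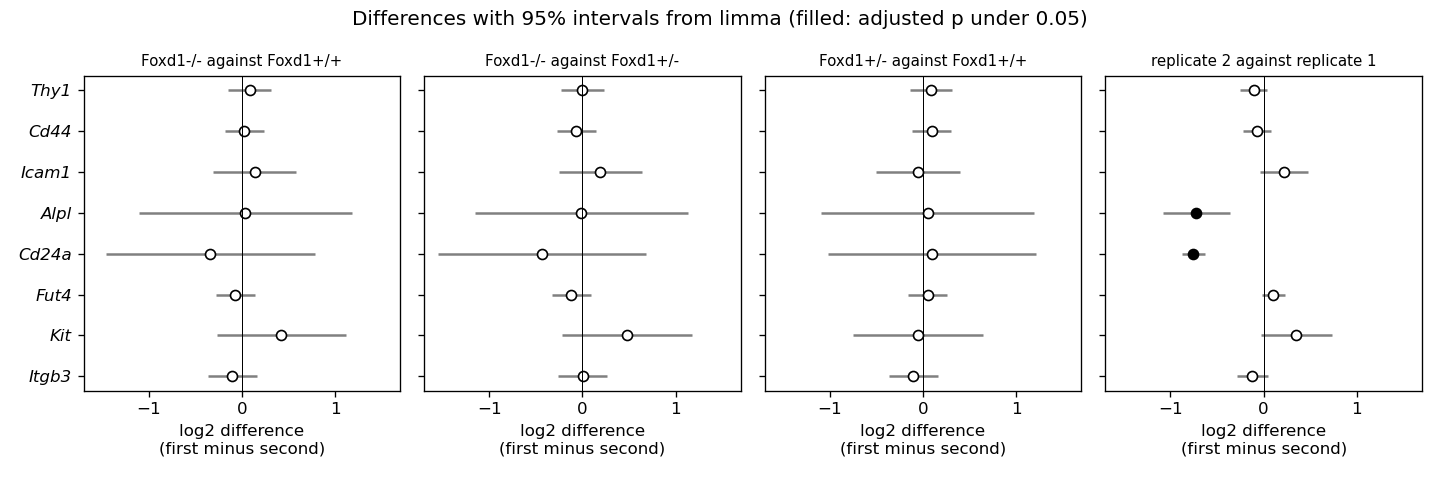
Log2 difference of each marker in the 3 genotype comparisons and between replicate numbers, with 95% intervals from limma on the horizontal axis and the markers down the side. Filled points passed at an adjusted p under 0.05, which holds for Alpl and Cd24a between replicate numbers alone, at -0.72 and -0.76.

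Read as a set, the comparisons of genotype held 0 of 8 markers that passed. Over all genes limma called 0 of 19938 (0%) in each of the 3 comparisons. That includes Foxd1 itself, whose mean log2 level was 7.66 for Foxd1-/- beside 10.55 for Foxd1+/+ and 10.50 for Foxd1+/-. A marker that did not pass is therefore not shown to be unchanged. Without adjustment, p lay under 0.05 for 421 genes (2.11%), 460 genes (2.31%) and 193 genes (0.968%), respectively for Foxd1-/- against Foxd1+/+, Foxd1-/- against Foxd1+/- and Foxd1+/- against Foxd1+/+. None of the 8 markers was among those genes in this fit, which has no replicate block. With the block, 1503 and 1507 of 19938 genes had an unadjusted p under 0.05 for Foxd1-/- against Foxd1+/+ and against Foxd1+/-. Cd24a was among them, at -0.34 and -0.43 (SE 0.06). Its limma adjusted p of 0.49 and 0.45 did not pass but equalled the smallest over all genes. The comparisons share arrays, so their values are not independent. The median log2 difference of the 8 markers was 0.03, -0.006 and 0.05, next to 0.003, -0.003 and 0.002 over all genes. Arrays did not overlap for 1 marker in the first comparison (Kit, higher in Foxd1-/-), 0 in the second and 1 in the third (Thy1, higher in Foxd1+/-), where 25.7%, 25.6% and 20.3% of all genes had such a separation in either direction, and 13.6% and 12.3% in the direction of Kit and of Thy1. The Foxd1-/- array was the lowest within both replicate numbers for Cd24a and Fut4, and the highest for Kit. Such an order held for 14.2% of all genes at the low end and 16% at the high end, so 2 and 1 of 8 markers are near the background.

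With 2 arrays against 2, an exact rank test cannot give a p below 0.333, and the intervals below are those of the fit without the replicate number as a block, in which the difference between replicate numbers counts as spread. For Thy1, Cd44, Fut4 and Itgb3 the widest interval bound in any genotype comparison lay at 1.29-fold, and larger changes in the intensity of these 4 lie outside those intervals. Fut4 lay below the array median with an unknown signal over background, so its interval does not bound the change in its RNA. For Icam1 the bound was 1.56-fold, for Kit 2.25-fold, for Alpl 2.29-fold and for Cd24a 2.92-fold. With the number as a block the SE was smaller, 0.17 against 0.44 for Alpl and 0.06 against 0.43 for Cd24a, and neither marker passed. In bulk RNA, fewer cells of a kind and less RNA per cell cannot be told apart.

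Replicate 2 was tested against replicate 1 over the 3 genotypes, with genotype as a block. Cd24a fell by 0.76 on the log2 scale (SE 0.05, 1.69-fold, limma adjusted p = 0.0060), with -0.71 for Foxd1+/+, -0.74 for Foxd1+/- and -0.82 for Foxd1-/-. Alpl fell by 0.72 (SE 0.14, 1.65-fold, limma adjusted p = 0.047), with -1.01, -0.32 and -0.83. The drop of Cd24a was thus nearly equal in the 3 genotypes, while that of Alpl was smallest in Foxd1+/-. What a replicate number marks is not stated in the labels, and infection, culture or embryo cannot be told apart. Of all genes 8.85% passed this test, 4% lower and 4.85% higher, and 2 of the 8 markers passed, both lower. Arrays of the 2 numbers did not overlap for 4 markers, Alpl and Cd24a lower and Icam1 and Fut4 higher in replicate 2, where 31% of all genes had such a separation, 15.8% lower and 15.2% higher.

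Both calls depended on the Foxd1-/- pair. Leaving out either Foxd1-/- array removes that pair from the contrast. After that limma called 0 of 19938 genes, against 1204 without a Foxd1+/+ array and 1389 without a Foxd1+/- array. At an unadjusted p under 0.05 these counts were 3192, 4427 and 4866, respectively. Without the Foxd1-/- pair Cd24a had a log2 difference of -0.72 (limma adjusted p = 0.060) and Alpl of -0.67 (0.23). Alpl also missed the threshold without either Foxd1+/+ array (-0.58, 0.094), after quantile normalization (0.054) and with a pseudocount of 16 (0.065). The directions held in all of these settings.

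The remaining 6 markers did not pass between replicate numbers. Kit differed by 0.35 ± 0.15 (limma adjusted p = 0.22), Fut4 by 0.11 ± 0.05 (0.26), Itgb3 by -0.12 ± 0.06 (0.34), Thy1 by -0.11 ± 0.06 (0.34) and Cd44 by -0.07 ± 0.06 (0.57). Thy1, Icam1, Alpl, Fut4, Kit and Cd24a moved in 1 direction in all 3 genotypes, that is 6 of 8 markers, where 45.4% of all genes did so. For Thy1 this was downward, by 0.03, 0.08 and 0.22 in Foxd1+/+, Foxd1+/- and Foxd1-/-. Cd44 and Itgb3 had mixed signs.

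**Figure D3:**
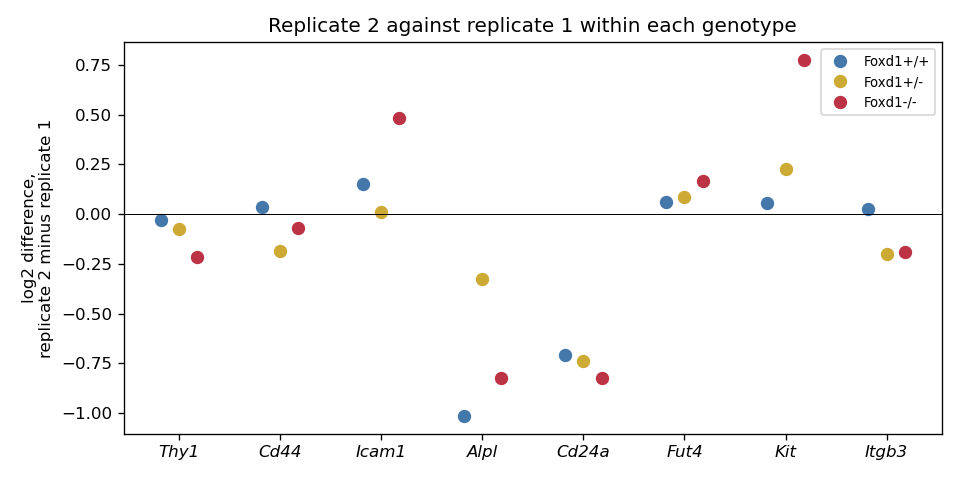
Log2 difference of replicate 2 from replicate 1 (vertical axis) for each marker, with 1 point per genotype. Cd24a lies between -0.82 and -0.71 and Alpl between -1.01 and -0.32, all below zero, and the Foxd1-/- points of Kit and Icam1 stand above those of the other genotypes at 0.78 and 0.49.

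Other gene groups moved with the replicate number alongside Alpl and Cd24a, and their part in those differences was not tested. Of 19 measured pluripotency genes, 7 passed lower and 0 higher, where 4% of all genes passed lower and 4.85% higher. The median of these pluripotency genes was -0.74 beside -0.002 over all genes. Among the 4 with the highest mean level, the factor Tfcp2l1 fell by 1.40 (SE 0.10, limma adjusted p = 0.0073), while the growth factor Gdf3 differed by -0.53 ± 0.12 (0.061), L1td1 by -0.12 ± 0.08 (0.49) and Nanog by -0.06 ± 0.20 (0.92). Of 20 fibroblast genes, 9 passed higher and 0 lower (median 0.37), with the collagen genes Col1a1 and Col3a1 up by 0.40 ± 0.07 (0.035) and 0.37 ± 0.05 (0.018), Col1a2 at 0.16 ± 0.05 (0.12) and Vim at 0.05 ± 0.06 (0.77). Of 18 interferon and NF-kB genes, 7 passed higher and 0 lower (median 0.42). Irf1 rose by 1.64 ± 0.22 (limma adjusted p = 0.021), Ifit1 by 2.34 ± 0.36 (0.029) and Ccl2 by 0.70 ± 0.14 (0.048), and Oas2 stood at 0.63 ± 0.22 (0.17). Of the delivered factors, Sox2 was lower by 0.55 ± 0.04 (limma adjusted p = 0.0081), and Pou5f1, at -1.16 ± 0.36 (0.13), did not pass. Klf4 went the other way, by 0.07, 0.02 and 0.19 in Foxd1+/+, Foxd1+/- and Foxd1-/-. For these genes a probe set may read the retroviral transcript as well as the cell's own.

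Between Foxd1-/- and Foxd1+/+ the same 3 lists had 0 genes that passed. There 3 of 19 pluripotency genes were higher and 16 lower (median -0.13), 17 of 20 fibroblast genes were higher and 3 lower (0.21), and 18 of 18 interferon and NF-kB genes were higher (0.43), values that stand beside those of Kit and Cd24a and whose part in them was not tested. Lists for other cell types that could be present also held genes that passed between replicate numbers, where 8.85% of all genes did: 2 of 13 for leukocytes (both lower), 1 of 8 for endothelium (higher), 2 of 8 for mast cells and blood progenitors (1 in each direction), 1 of 4 for megakaryocytes (lower) and 1 of 8 for neurons and melanocytes (higher). In the genotype comparisons 0 genes of these lists passed. Of the 13 leukocyte genes, 10 were lower and 3 higher in Foxd1-/- than in Foxd1+/+ (median -0.16). Without overlap 6 of them were lower and 1 higher, where 2409 of all 19938 genes were lower and 2717 higher. Against Foxd1+/- 10 were lower and 3 higher (median -0.24). Lower is also the direction of Cd24a. The summed intensity of this list was 2940 and 2709 for Foxd1+/+, 3197 and 2393 for Foxd1+/- and 2246 and 1917 for Foxd1-/-, and its part in the Cd24a level was not tested.

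A further 23 surface proteins used to follow reprogramming were measured. In the genotype comparisons 0 of 23 passed. Between replicate numbers 4 of 23 passed, all higher in replicate 2, where 8.85% of all genes passed and 4.85% passed higher. These were aminopeptidase N (Anpep, by 0.82 ± 0.11, limma adjusted p = 0.0205), the neural adhesion molecule Ncam1 (0.43 ± 0.05, 0.013), the TGF-beta coreceptor endoglin (Eng, 0.26 ± 0.04, 0.034) and the sialomucin Cd34 (0.31 ± 0.05, 0.028). The list median was -0.02. Epithelial adhesion molecules did not pass: Epcam read 483 and 313 for Foxd1+/+, 396 and 425 for Foxd1+/- and 359 and 226 for Foxd1-/-, a log2 difference between replicate numbers of -0.40 ± 0.17 (0.23), and E-cadherin (Cdh1) stood at -0.04 ± 0.15 (0.92). The tetraspanin Cd9 differed by -0.09 ± 0.04 (0.29). Epcam was lower for Foxd1-/- than for Foxd1+/+ within each replicate number, with log2 differences of -0.43 and -0.47.

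Among 14 ligands and partners of the markers, 1 passed between replicate numbers, where 8.85% of all genes did. This was Kitl, which rose by 0.37 ± 0.06 (limma adjusted p = 0.032), in all 3 genotypes by 0.24, 0.41 and 0.45. Among 11 fucosyltransferases and phosphatase relatives 2 passed, both higher, where 4.85% of all genes passed higher. These were Fut11 by 0.27 ± 0.05 (0.047) and Ank, a pyrophosphate transporter, by 0.34 ± 0.07 (0.047). The placental-type phosphatase gene Alppl2 read 33.1 to 36.7 and differed between replicate numbers by -0.02 ± 0.05 (limma adjusted p = 0.83). In the genotype comparisons 0 of these 14 and 0 of these 11 genes passed.

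Alpl and Cd24a were the markers whose log2 range over the 6 arrays reached 1, at 1.01 and 1.21, and for these the genes with the most similar pattern were listed among 607 named genes of at least that range. Alpl was most like Sall4, a zinc finger factor of the pluripotency network (Pearson r = 0.993 over 6 arrays), the small membrane glycoprotein gene Smagp (0.986) and the chromatin factor Utf1 (0.982). Sall4 read 447 and 205 for Foxd1+/+, 369 and 266 for Foxd1+/- and 405 and 209 for Foxd1-/-, so that, as for Alpl, the Foxd1+/- array was the lowest in replicate 1 and the highest in replicate 2. Cd24a was most like the cation channel gene Trpc6 (r = 0.988), the glycosyltransferase Gcnt2 (0.985) and the germ cell gene Morc1 (0.982). Trpc6 read 279 and 133, 269 and 128, and 210.2 and 91.3 in the same order of groups. These coefficients describe arrays that fall into 2 sets by replicate number, which any gene that differs between the numbers will share.

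**Figure D4:**
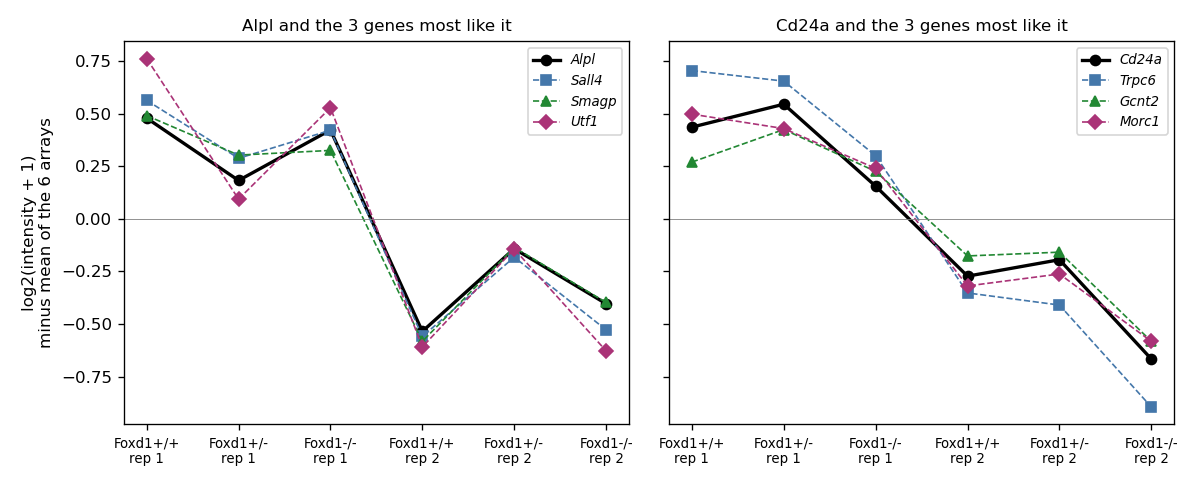
Levels of Alpl (left) and Cd24a (right) with the 3 genes most like each, as log2(intensity + 1) minus the mean of the 6 arrays, with replicate 1 arrays first on the horizontal axis. In the left panel the Foxd1+/- array is lowest within replicate 1 and highest within replicate 2 for every gene, and in the right panel the Foxd1-/- array is lowest within both replicate numbers.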

How the data were processed

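Intensities were used as the authors deposited them in the series' value table, 1 linear brightness per probe set and array. How they were background-corrected and normalized is not stated in the labels used here. Per the labels' protocols, 300 ng of total RNA was labelled for each array. Of 28856 probe sets, 21789 have 1 gene symbol in the platform annotation, 1621 several and 5446 none; for each of 19938 genes the probe set with the highest mean was kept. Genotypes were compared on log2(intensity + 1) with limma 3.58.1 in R 4.3.3, over all genes and 6 arrays, with Benjamini-Hochberg adjustment and a threshold of 0.05, without a replicate block; replicate numbers were compared with genotype as a block. The markers, and the gene lists, were chosen with earlier results of these data known. Genes named are the markers, Foxd1 and the delivered factors, genes of the partner, enzyme and surface lists by role, up to 4 of highest mean from each other list, and the 3 most like each marker of log2 range 1 or more; Ptprc, Cpa3 and Mitf were added as defining markers. The number of arrays limits precision. Replicate 2 minus replicate 1 correlated across genes at 0.55 to 0.73 between genotypes. Alternatives were other pseudocounts, scalings, filters and probe set rules, the replicate block, and leaving out each array.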

Additional observations from a re-analysis of the deposited data

How the results depend on the processing

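Of 236 marker differences recomputed under other settings, 233 kept their direction and side of the threshold. Part of this agreement was fixed in advance. The replicate block, the fit of only the 2 genotypes compared and the filter on mean level leave a marker's log2 difference unchanged. So does the mean of all probe sets, because each marker has 1. Between genotypes 0 genes passed under any setting. Itgb3 between Foxd1-/- and Foxd1+/- reversed to -0.01 (-0.0131) after quantile normalization, and the cause was not tested. With the replicate block, limma again called 0 genes in each genotype comparison, with 1503, 1507 and 400 at an unadjusted p under 0.05, and Cd24a, whose SE went from 0.43 to 0.06, had intervals for Foxd1-/- of -0.49 to -0.18 against Foxd1+/+ (adjusted p = 0.49) and -0.58 to -0.28 against Foxd1+/- (0.45), while the SE of Alpl went from 0.44 to 0.17; the labels do not say that a number pairs arrays. Leaving out 1 array gave 0 to 1389 genes called between replicate numbers, with 1204 when a Foxd1+/+ array, 1389 when a Foxd1+/- array and 0 when a Foxd1-/- array was left out; the cause was not tested. Of 192 marker differences with 1 array left out, 23 reversed and 6 lost the threshold. Ranges with 1 array left out that crossed zero were, for Foxd1-/- against Foxd1+/+, Thy1 -0.0244 to 0.1904, Cd44 -0.0095 to 0.0580, Icam1 -0.1069 to 0.3793, Alpl -0.4691 to 0.5444, Fut4 -0.1540 to 0.0136 and Cd24a -0.7478 to 0.0734. For Foxd1-/- against Foxd1+/- they were Thy1 -0.1090 to 0.1057, Cd44 -0.1589 to 0.0243, Icam1 -0.0519 to 0.4344, Alpl -0.4235 to 0.4022 and Itgb3 -0.0974 to 0.1018. For Foxd1+/- against Foxd1+/+ they were Cd44 -0.0001 to 0.1832, Icam1 -0.1299 to 0.0199, Alpl -0.4584 to 0.5551, Kit -0.1646 to 0.0618 and Cd24a -0.2760 to 0.4630. Where leaving out an array leaves 1 in a genotype, that array is assumed to vary like the others. Part of the agreement with 1 array left out was also fixed in advance. Leaving out an array of the third genotype cannot change the log2 difference between the other genotypes. Leaving out either array of a genotype gives the same difference between replicate numbers, so those results come in identical pairs.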
